A study of Mus musculus with 2 samples.

Results

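The miR-181 family of the mouse consists of 6 microRNA genes, Mir181c, Mir181d, Mir181a-1, Mir181b-1, Mir181a-2 and Mir181b-2, and its counts were followed here in whole lung of embryos at embryonic day 15.5. The members were chosen by their names in the GENCODE annotation, not by a threshold on counts, and all 6 were among the 1973 microRNA genes of the deposited tables. The libraries form 1 group, embryonic lung of mice of strain B6NCrl, described in the labels as healthy and of mixed sex, with no treatment and no engineered allele named. Replicate 1 came from the pooled lungs of 78 embryos and replicate 2 from those of 62 embryos. Size selection kept inserts below 30 nt. Both pools carry 1 donor identifier in the labels, and which sources the spread between them covers (embryos, dissection or library preparation) cannot be told apart. The design holds no comparison between conditions.

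MicroRNAs are short RNAs cut from a hairpin precursor, which can release a product from its 5′ side (5p arm) and another from its 3′ side (3p arm). Either can guide a silencing complex to messenger RNAs, mainly through the seed, bases 2 to 8 from its 5′ end, so microRNAs with 1 seed can share targets. The miR-181 microRNAs are best known from lymphocytes, where miR-181a raises the sensitivity of developing T cells to antigen, and from vascular endothelium, where miR-181b dampens NF-κB signalling. In whole lung, fewer cells of a type and less RNA per cell cannot be told apart.

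The mature sequences are shown first, since they define the family and decide which reads can be credited to which gene. RefSeq (GRCm38.p6) held both arms of all 6 genes. The seed is in capitals, and the arms made on the 5′ side are as follows.
miR-181a-5p, from Mir181a-1 and Mir181a-2: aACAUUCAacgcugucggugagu
miR-181b-5p, from Mir181b-1 and Mir181b-2: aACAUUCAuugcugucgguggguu
miR-181c-5p, from Mir181c: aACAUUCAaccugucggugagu
miR-181d-5p, from Mir181d: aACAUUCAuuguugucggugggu

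All 4 of these sequences carried the seed ACAUUCA. Among 1058 mouse precursors with mature sequences in the table, these 6 genes were the only ones with that seed in an annotated arm. Counted from base 1 at the 5′ end, miR-181b-5p and miR-181d-5p were identical over their first 11 bases, then differed by C12U, and miR-181b-5p was 1 base longer. From miR-181a-5p to miR-181b-5p the changes were A9U, C10U and A21G, beside the added last base. The edit distance from miR-181a-5p to miR-181c-5p was 1, a base that miR-181c-5p lacks after the first 10. The family therefore fell into 2 kinds by its 5p arms, miR-181a with miR-181c and miR-181b with miR-181d.

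The 3p arms, also with the seed in capitals, were all different from each other.
miR-181a-1-3p: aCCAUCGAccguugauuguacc
miR-181a-2-3p: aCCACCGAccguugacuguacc
miR-181b-1-3p: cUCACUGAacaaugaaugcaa
miR-181b-2-3p: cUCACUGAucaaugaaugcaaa
miR-181c-3p: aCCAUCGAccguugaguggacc
miR-181d-3p: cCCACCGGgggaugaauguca

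The 3p arms of Mir181a-1 and Mir181c shared the seed CCAUCGA, and those of Mir181b-1 and Mir181b-2 shared UCACUGA. The 3p arm of Mir181a-2 differed from that of Mir181a-1 by U5C, inside the seed, and by U16C. None of the 4 seeds found among the 3p arms occurred in an annotated arm of a precursor outside the family.

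The genes lie as 3 pairs in the mm10 assembly. On chromosome 1, plus strand, Mir181a-1 (ENSMUSG00000065565.1, 137966455 to 137966541) is followed after 97 bp by Mir181b-1 (ENSMUSG00000065458.1, 137966639 to 137966718). Both lie inside an intron of the noncoding gene Gm4258 on their own strand, and the long noncoding RNA A430106G13Rik starts within Mir181a-1 and has an exon that overlaps Mir181b-1. On chromosome 2, plus strand, Mir181a-2 (ENSMUSG00000065423.1, 38852735 to 38852810) and Mir181b-2 (ENSMUSG00000065578.1, 38853830 to 38853918) are 1019 bp apart. They lie in an intron of Nr6a1, an orphan nuclear receptor gene on the opposite strand, and Mir181a-2 starts 364 bp beyond the end of the antisense transcript Nr6a1os. On chromosome 8, minus strand, Mir181c (ENSMUSG00000065483.1, 84178873 to 84178961) and Mir181d (ENSMUSG00000076338.1, 84178716 to 84178787) are 85 bp apart in an intron of Nanos3, a germ cell gene on the same strand. Of the 3 pairs, those on chromosomes 1 and 2 each hold a miR-181a gene and a miR-181b gene.

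Counts in the sense direction of microRNA genes, as judged from the larger of the stranded columns, summed to 5354530 of 11410353 reads in replicate 1 and to 6489390 of 13532349 in replicate 2. Levels below are CPM, counts per 1000000 of these gene counts. A gene without reads could still have reached 0.560 CPM in replicate 1 or 0.462 CPM in replicate 2, the value of 3 counts, an upper limit that covers counting error only, as do all intervals below. Reads that mapped to several places made up 31.4% and 30.6% of the libraries and stand on a line of their own. The tissue label was checked against known microRNAs. Endothelial Mir126a stood at 67953 ± 1347 CPM, mesenchymal Mir143, the most abundant gene, at 79294 ± 3771 CPM, and epithelial Mir429 at 13376 ± 314 CPM (SD, n = 2). The highest genes of lists for other cells were lower in both libraries, with 667 ± 26.1 CPM for Mir223 of leukocytes, 515 ± 98.6 for Mir451a of erythroid cells and 137 ± 41.1 for Mir137 of neurons. The leukocyte gene Mir142 has no row of its own. Reads on the strand opposite Mir142b, where it lies, were above Mir223, at 1484 and 989.6 per 1000000 gene counts. Mir208b of heart muscle stood at 269 CPM in replicate 1 and 780 CPM in replicate 2, and Mir122 of liver at 470 and 278 CPM, so these 2 differed between the pools. The muscle list did not move as a whole. Its other detected genes Mir206 and Mir499 were also higher in replicate 2, but Mir208a was lower there, at 573 and 255 CPM.

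All 6 miR-181 genes were detected, meaning at least 10 counts in both libraries, a mark that 18.1% of all genes in the tables reached. Of the 6 members, 4 also exceeded a mean of 1000 CPM, which 4.82% of all genes did. All 6 passed a minimum of 1 count in both libraries, as did 29.9% of all genes, and of 100 counts, as did 12.9%. The family held 57405 counts in replicate 1 and 74826 in replicate 2, or 1.07% and 1.15% of the gene counts. Its counts lay mainly in the chromosome 8 pair, whose share of the family was 70.0% ± 0.830. The chromosome 1 pair had 17.3% ± 1.11 and the chromosome 2 pair 12.7% ± 0.277 (SD, n = 2). Reads mapped to several places are assumed to be left out, and only Mir181c and Mir181d have a 5p arm held by no other annotated precursor. How the shares would stand with those reads was not tested. In summed CPM the members reached 10721 and 11531, whereas the 6 leukocyte genes in the table (Mir142b, Mir223, Mir150, Mir155, Mir146 and Mir146b) summed to 1104 and 994 CPM. In that list 4 of 6 were detected, and Mir142b was at 0 on its annotated strand. Mir142, a defining leukocyte microRNA gene, lies opposite Mir142b and has no row of its own here. Reads on that opposite strand numbered 7944 and 6422, or 1484 and 989.6 per 1000000 gene counts, and are not in the sum. How much of the miR-181 signal came from leukocytes was not tested.

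Mir181c, whose 2 arms occur in no other annotated precursor, was the highest member. It held 23592 counts in replicate 1 and 30599 in replicate 2, or 4406 and 4715 CPM (mean 4561 ± 219, SD, n = 2). Its neighbour Mir181d, also with arms of its own, held 16246 and 22207 counts, or 3034 and 3422 CPM (3228 ± 274). The libraries did not overlap between these genes. Mir181c exceeded Mir181d by 1.45-fold in replicate 1 and 1.38-fold in replicate 2, a log2 ratio of 0.50 ± 0.0536.

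Mir181a-1, the miR-181a gene of chromosome 1, came next. It held 10259 and 12178 counts, or 1916 and 1877 CPM (1896 ± 27.8). Mir181b-2, the miR-181b gene of chromosome 2, followed with 6794 and 9198 counts, or 1269 and 1417 CPM (1343 ± 105, SD, n = 2 for each). Both lay below Mir181d and above 1000 CPM in each library, and they did not overlap with each other. Mir181d exceeded Mir181a-1 by 1.70-fold (log2 0.76 ± 0.144), and Mir181a-1 exceeded Mir181b-2 by 1.41-fold (log2 0.50 ± 0.134).

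The other copies were counted far lower. Mir181a-2, the second source of miR-181a-5p, held 377 and 442 counts, or 70.4 and 68.1 CPM (69.3 ± 1.62). Mir181b-1, the second source of miR-181b-5p, held 137 and 202 counts, or 25.6 and 31.1 CPM (28.4 ± 3.92, SD, n = 2 for each). These 2 genes also kept apart in both libraries, by 2.45-fold (log2 1.30 ± 0.234). The 95% exact Poisson interval of Mir181b-1 ran from 21.5 to 30.2 CPM in replicate 1. Mir181a-2 and Mir181b-1 together made up under 1% of the family's counts, 0.624% ± 0.0467 and 0.254% ± 0.0221.

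**Figure D1:**
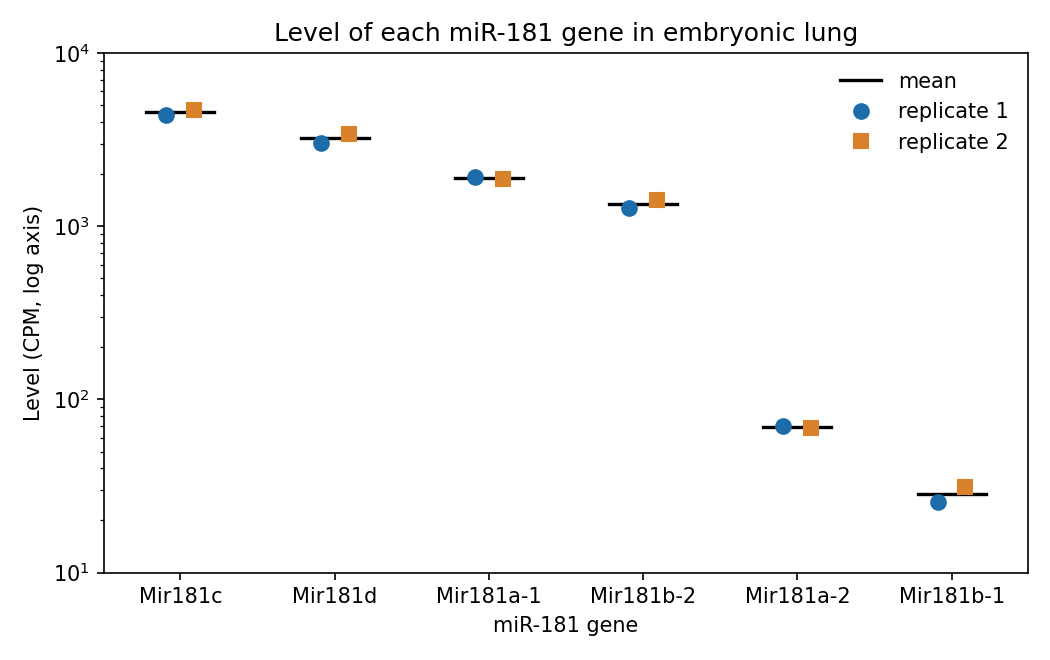
Level of each miR-181 gene in CPM on a log axis, with replicate 1 as circles, replicate 2 as squares and the mean as a bar. Mir181c, Mir181d, Mir181a-1 and Mir181b-2 lie above 1000 CPM, and Mir181a-2 and Mir181b-1 lie below 100 CPM in both replicates.

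Reads with several mapped positions are assumed to count for none of the genes, so the order below and the shares above are those of reads credited to 1 gene. The order was Mir181c, Mir181d, Mir181a-1, Mir181b-2, Mir181a-2, Mir181b-1 in both libraries. For each of the 5 pairs of neighbours in that order the mean log2 ratio exceeded its SD over the replicates. An exact 2-sided permutation test of log2 CPM gave p = 0.333 for each of 6 pairs compared (the 5 neighbours, and Mir181a-1 with Mir181b-1), and 0.333 after Benjamini-Hochberg adjustment. That is the smallest p that 2 values against 2 allow, so no pair could pass 0.05. Dividing by the annotated precursor length kept the order, with 5124 CPM per 100 bases for Mir181c, 4483 for Mir181d, 2180 for Mir181a-1, 1509 for Mir181b-2, 91.1 for Mir181a-2 and 35.4 for Mir181b-1.

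The pairs on chromosomes 1 and 2 were counted in opposite order. On chromosome 1 the miR-181a gene was the higher one, by 74.9-fold in replicate 1 and 60.3-fold in replicate 2 (log2 of Mir181a-1 over Mir181b-1, 6.07 ± 0.221). On chromosome 2 the miR-181b gene was the higher one, by 19.4-fold (log2 of Mir181b-2 over Mir181a-2, 4.17 in replicate 1 and 4.38 in replicate 2, 4.28 ± 0.147). The log2 ratio of the miR-181a gene over the miR-181b gene thus differed between the loci by 10.40 in replicate 1 and 10.29 in replicate 2 (10.35 ± 0.0744, SD, n = 2). In the chromosome 8 pair, by contrast, the members stayed within 1.45-fold of each other in each library.

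These 4 genes are the ones that share a mature arm, and their hairpins show where. The stretch that a hairpin has in common with its copy on the other chromosome is in capitals, as RefSeq (GRCm38.p6) gives the hairpins.
Mir181a-1, chr1:137966455-137966541, plus strand: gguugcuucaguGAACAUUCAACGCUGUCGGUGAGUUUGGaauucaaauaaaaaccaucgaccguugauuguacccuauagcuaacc
Mir181a-2, chr2:38852735-38852810, plus strand: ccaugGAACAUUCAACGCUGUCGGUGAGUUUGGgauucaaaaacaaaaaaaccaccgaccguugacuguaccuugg
Mir181b-1, chr1:137966639-137966718, plus strand: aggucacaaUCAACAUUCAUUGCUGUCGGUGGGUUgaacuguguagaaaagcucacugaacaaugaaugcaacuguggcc
Mir181b-2, chr2:38853830-38853918, plus strand: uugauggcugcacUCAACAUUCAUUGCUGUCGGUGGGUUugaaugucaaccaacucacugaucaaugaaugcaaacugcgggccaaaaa

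The miR-181a copies shared 28 bases, the whole 23-base 5p arm with 1 base before it and 4 after it. A read that begins and ends inside this stretch fits both loci. The miR-181b copies shared 26 bases, the 24-base 5p arm with 2 bases before it and 0 after it. The first base beyond that arm was G in Mir181b-1 and U in Mir181b-2. On the 3′ side the copies differed, so that each 3p arm occurred in 1 annotated precursor. By comparison, Mir181c shared at most 17 bases in a row with another member (with Mir181a-1 and with Mir181a-2), and Mir181d at most 13 (with Mir181b-1).

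Cut into windows of 20 bases, 59 of 68 windows of Mir181a-1, 48 of 57 of Mir181a-2, 54 of 61 of Mir181b-1 and 63 of 70 of Mir181b-2 occurred in that precursor alone among 2202 annotated ones. All 70 windows of Mir181c and all 53 of Mir181d did. The windows held by 2 precursors lay over the 5p arm in each of the 4 genes. The tables give 1 count per precursor, so the 5p and 3p arms could not be counted apart. Which reads make up the counts of the miR-181a and miR-181b genes, and whether reads of their 5p arms stand among the reads mapped to several places, was not tested. Those reads numbered 62.5 for each count of the family in replicate 1 and 55.4 in replicate 2.

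**Figure D2:**
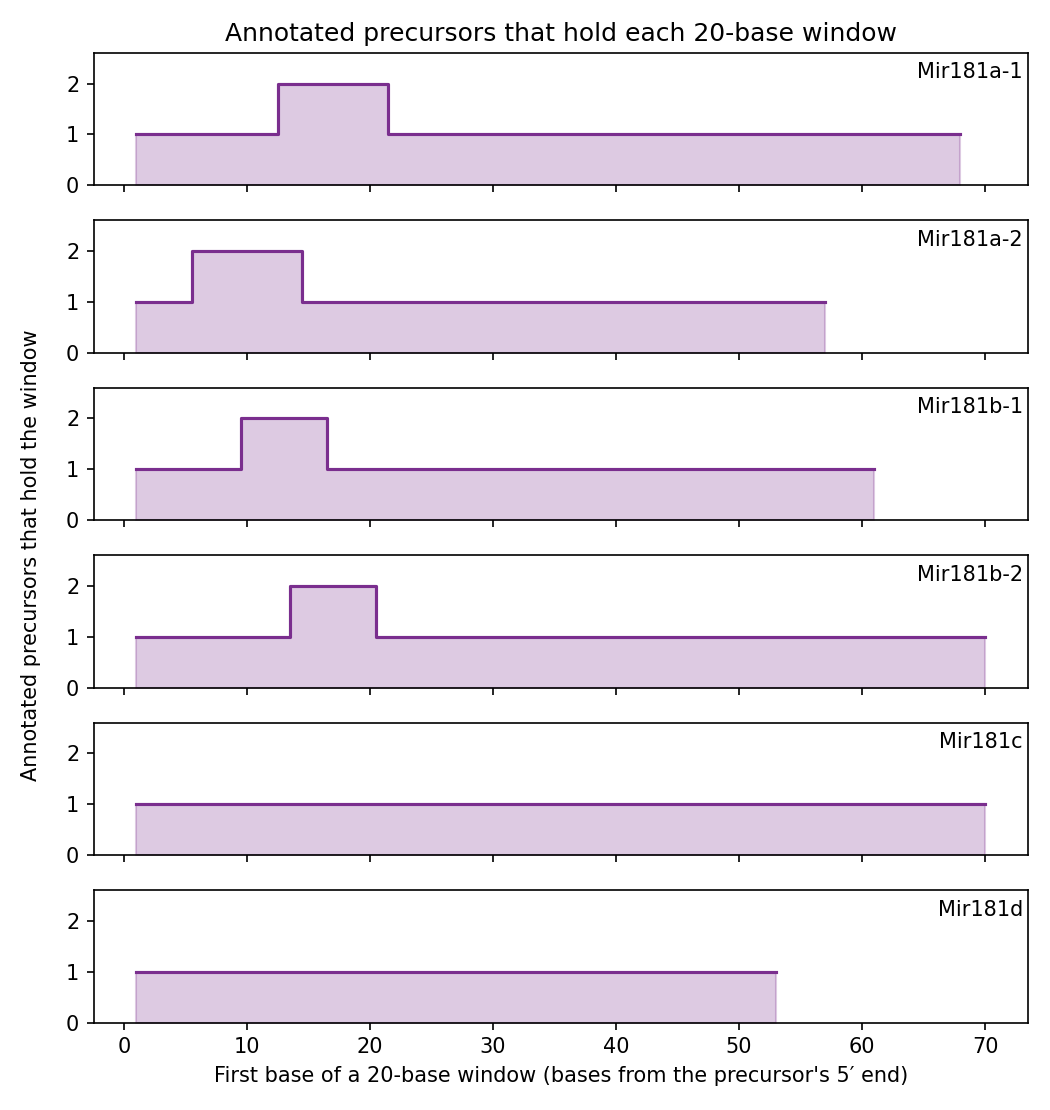
For each miR-181 gene, the number of annotated precursors that hold the 20-base window starting at each base, counted from the 5′ end of the precursor. Windows over the 5p arm of the miR-181a and miR-181b genes are held by 2 precursors, and every window of Mir181c and Mir181d by 1.

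Other microRNA genes with a shared arm were set beside the miR-181 copies. In the tables, 20 pairs of genes shared an arm that no further precursor holds and had another arm of their own, and in 15 of them both genes were detected. Mir181b-2 exceeded Mir181b-1 by 47.5-fold (log2 5.57 ± 0.0871), the widest gap of the 15. Mir181a-1 exceeded Mir181a-2 by 27.4-fold (log2 4.78 ± 0.0127) and by 27.2-fold and 27.6-fold in the single libraries. Mir7-1 over Mir7-2 (32.6-fold) had the second place, but it rests on 14 and 13 counts of Mir7-2 and was 26.7-fold in replicate 1, below the miR-181a pair, and 39.8-fold in replicate 2. The miR-181b pair was the widest of the 15 in each library. The other 13 pairs had a median gap of 4.51-fold, and the narrowest was 1.27-fold for Mir138-2 over Mir138-1. This set was put together after the miR-181 values were known, and no test was made of it.

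**Figure D3:**
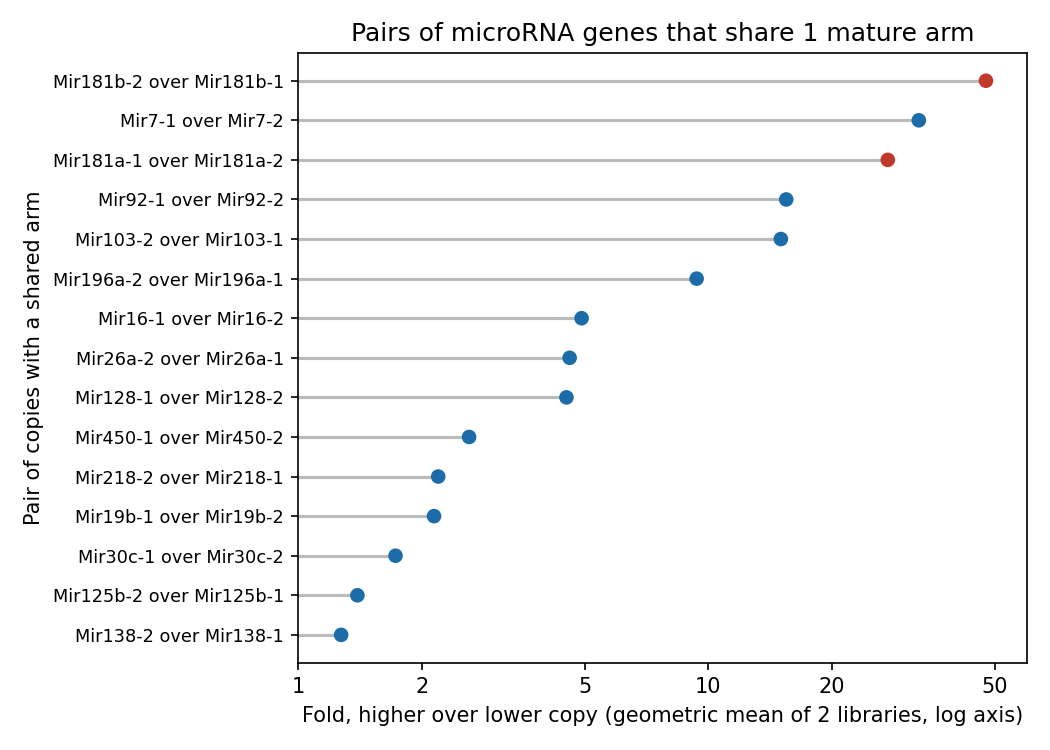
Fold of the higher over the lower gene on a log axis, as geometric mean of 2 libraries, in 15 pairs of genes that share a mature arm and are both detected. The miR-181b pair, at 47.5-fold, and the miR-181a pair, at 27.4-fold, are drawn in red, and the other pairs in blue.

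Over all precursors with 2 annotated arms, those with both arms in 1 precursor (497, Mir181c and Mir181d among them) were detected in 44.5% of cases, with a median of 230 CPM when detected. Those with no such arm (27) were detected in 37.0% of cases, with a median of 218 CPM. Those with 1 such arm (58, the miR-181a and miR-181b genes among them) were detected in 63.8% of cases, with a median of 46.3 CPM. A match on either strand counted in this search. Mir30e, of the class with no such arm, still held 91334 and 96327 counts, so the classes do not show which reads could be credited to 1 gene. Mir181a-1 and Mir181b-2 lay above the upper quartile of the class with 1 such arm, 205 CPM, while Mir181a-2 lay between that class's median and upper quartile and Mir181b-1 below its median.

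Among reads credited to 1 gene, families differed in how much of their counts came from genes with both arms to themselves. Reads mapped to several places are assumed to count for none, which can take counts from genes with a shared arm. These shares are therefore set in part by the counting and do not give the make-up of a family. How they would stand with those reads was not tested. In the miR-181 family that share was 70.0% ± 0.830, from 2 of 6 genes. It was 72.1% ± 0.918 in the miR-15/16 family (highest member Mir15a, lowest Mir16-2) and 41.6% ± 0.566 in the miR-30 family (highest Mir30e, lowest Mir30c-2). In the let-7 family, highest for Mirlet7g and lowest for Mirlet7c-1, it was 97.2% ± 0.252 (SD, n = 2 for each). The miR-26 and miR-29 families and the miR-23/27/24 gene group, which is not 1 family, were at 98.7% to 99.8%. The genes used from the miR-199, miR-128 and miR-218 families had no member of this kind. These shares are over genes in the tables with 2 arms in RefSeq, which were 9 of 14 listed for let-7, 4 of 6 for miR-30, 4 of 6 for miR-23/27/24 and 2 of 3 for miR-199. Mir23b, at 27595 ± 266 CPM the highest of the miR-23/27/24 genes, was among those left out. Mir30e, at 15951 ± 1565 CPM, was scored as having no arm to itself by the search of both strands. Its counts therefore do not add to the miR-30 share, and whether its reads fit several loci was not tested.

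**Figure D4:**
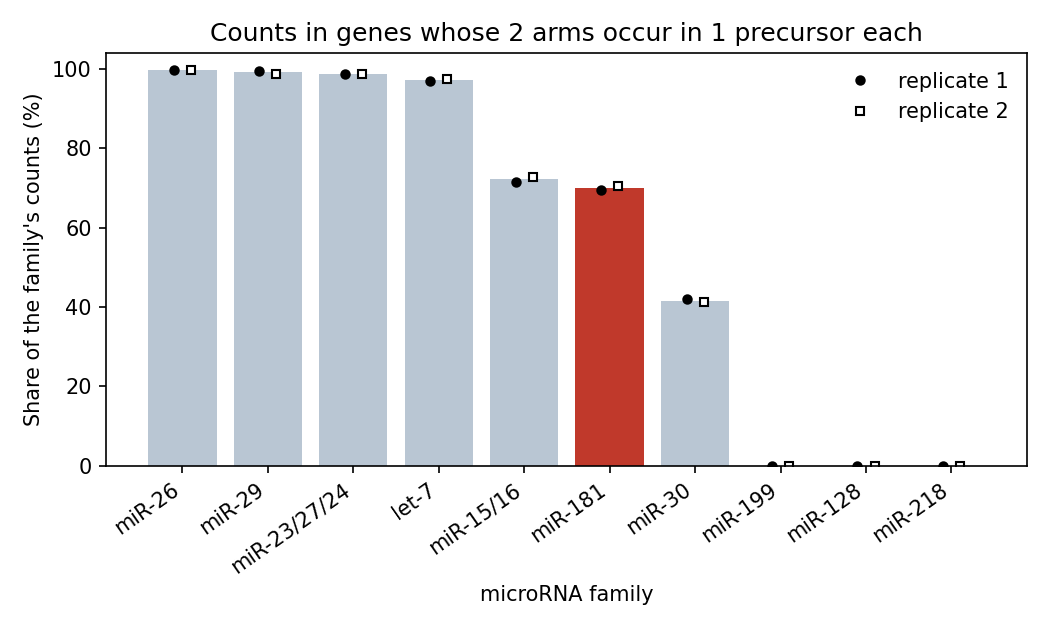
Share of each microRNA family's counts, in percent, that lay in genes whose 2 arms occur in 1 annotated precursor each. Bars are means of 2 libraries, circles replicate 1 and squares replicate 2. The miR-181 family, in red, stands at 70.0%, near the miR-15/16 family at 72.1% and below the let-7 family at 97.2%.

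Placed among all genes by mean CPM, Mir181c ranked 39, Mir181d 56, Mir181a-1 69, Mir181b-2 83, Mir181a-2 206 and Mir181b-1 243. With 2 libraries of 1 group the nearest gene in level is the closest match there is. Mir181c stood between Mir375 (4578 ± 498 CPM), a microRNA of neuroendocrine cells, and Mir423 (4540 ± 575 CPM). Mir181d stood between Mir431 (3252 ± 25.3 CPM) and Mir92-1 (3155 ± 59.0 CPM). Mir181a-1 stood between Mir92b (2008 ± 65.2 CPM) and Mir503 (1876 ± 214 CPM), and Mir181b-2 between Mir101b (1401 ± 102 CPM) and Mir337 (1311 ± 96.3 CPM). In each of these cases at least 1 neighbour lay within the spread of the replicates. Mir181a-2 fell between Mir101a (71.1 ± 9.71 CPM) and Mir30c-1 (68.1 ± 13.1 CPM), and Mir181b-1 between Mir302a (28.6 ± 3.16 CPM) and Mir218-2 (28.4 ± 3.48 CPM), each within the spread of the neighbouring gene's replicates.

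The pools gave close values for the family. The ratio of replicate 2 over replicate 1 was 1.13 for Mir181d (95% exact binomial interval 1.11 to 1.15), 1.12 for Mir181b-2 (1.08 to 1.15) and 1.07 for Mir181c (1.05 to 1.09). For these 3 genes the interval left out 1, with replicate 2 higher, as it did for 19.6% of the 357 detected genes. No member was lower in replicate 2 by this rule, against 25.2% of detected genes. The interval held 1 for Mir181a-1 (ratio 0.979, 0.954 to 1.01), Mir181a-2 (0.967, 0.841 to 1.11) and Mir181b-1 (1.22, 0.975 to 1.52). The median gap between the pools was 1.09-fold for the members and 1.10-fold for all detected genes. The largest gap in the family, that of Mir181b-1, was exceeded by 23.2% of detected genes.

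**Figure D5:**
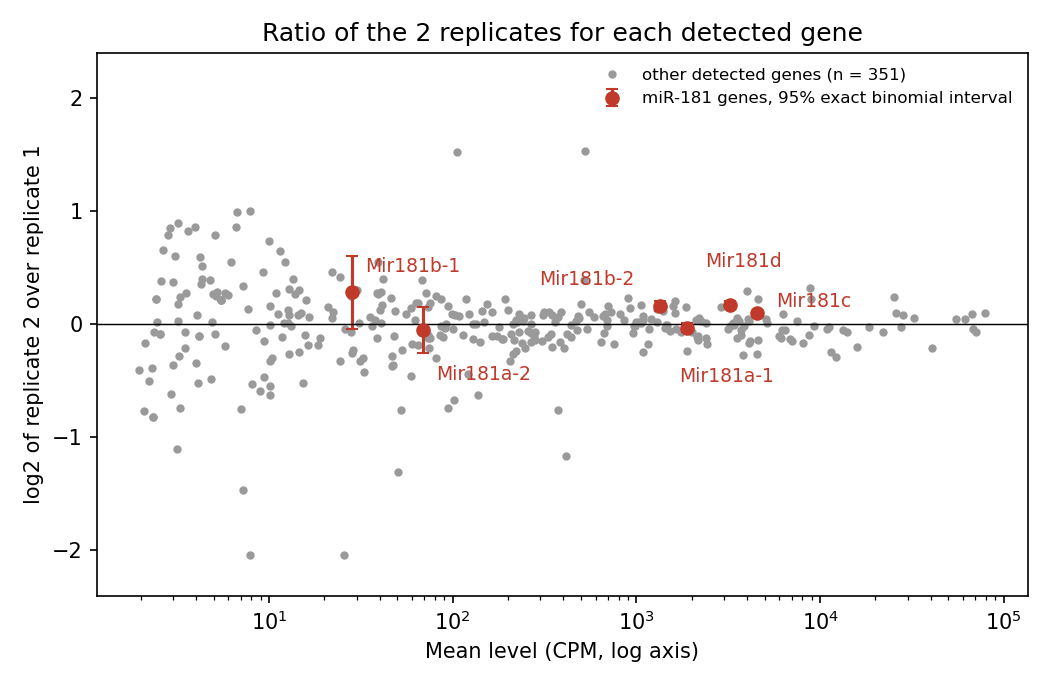
The log2 ratio of replicate 2 over replicate 1 against the mean level in CPM (log axis) for 357 detected genes, with the 6 miR-181 genes in red and their 95% exact binomial intervals as bars. The members lie near 0, from -0.05 for Mir181a-2 to 0.28 for Mir181b-1.

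No read was counted on the strand opposite to any of the 6 members in either library, so at most 3 counts, 0.560 and 0.462 CPM, are allowed there among reads that map to 1 place. Over all genes, 3.95% had a count on the opposite strand. Members of the chromosome 2 pair lie opposite Nr6a1, and Mir181b-2 also lies opposite an exon of the unclassified transcript Gm44144. The chromosome 1 pair lies opposite an intron of the long noncoding RNA Gm26936.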

How the data were processed

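Small RNA of 2 libraries was analysed. The authors deposited raw read counts per microRNA gene, with mm10 as assembly and M4 as annotation, per the file headers in the readmes, and which aligner and counter they used is not given in the sources used here. The 3 count columns were read as unstranded, annotated strand (used here) and opposite strand, as no header names them. The last 2 add to the first, and the one with far more reads (5354530 against 160572 in replicate 1) was taken as the annotated strand, which is an assumption. The 4 summary lines, among them reads mapped to several places, stayed out of library totals. No molecular identifiers are recorded.

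Identifiers were matched to GENCODE M21 without version (1894 of 1973, all 6 members; Mir181c is version 1 in the tables and 2 in M21). Mature arms came from RefSeq (GRCm38.p6). The table held a hairpin for 5 members and none for Mir181c. No genome was used, so sequences were searched on both strands of 2202 annotated precursors in place of the genome named in the plan.

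CPM, means, SDs, exact Poisson and binomial intervals (95%) and exact permutation tests were computed in Python 3.11.15 with scipy 1.17.1. TMM totals came from edgeR 4.0.16 and size factors from DESeq2 1.42.0. No count model was fitted, since there is 1 group. The interval and window steps were tested on simulated data. Named genes were the members, the genes next to them in level, the highest gene of each marker list, the highest and lowest of each comparison family, and Mir143. Mir7-1, Mir7-2, Mir138-1 and Mir138-2 were named after their values were seen, as were Mir206, Mir208a, Mir499 and the remaining leukocyte genes. Members and lists were chosen with earlier results of these data known.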

Additional observations from a re-analysis of the deposited data

How the results depend on the processing

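No result changed direction under any alternative run. Of 136 recomputed values, 120 stayed within the spread between replicates (counting error for shares of windows), within 1.5 times for counts, or on the same side of the threshold where there was a test. Among the 120 were 24 values without replicate 1 and 24 without replicate 2. Apart from the order of the members, these could not fail, since 1 of 2 values always lies within their SD of the mean. Nor could ratios and shares within the family move without regard to strand, as no member had opposite-strand counts. Scaling to all reads of a library gave levels of 2164 CPM for Mir181c, 1532 for Mir181d, 899.5 for Mir181a-1, 638 for Mir181b-2, 32.9 for Mir181a-2 and 13.5 for Mir181b-1, and a family share of 0.528%, because the total is larger. Leaving Mir143 out of the total gave 4954, 3507, 2060, 1459 and 75.2 CPM for the first 5 of these genes and a share of 1.21%. Mir181b-1 also rose, to 30.8 CPM, but stayed within its spread between replicates. Counting without regard to strand gave 1841 CPM for Mir181a-1 and 67.3 CPM for Mir181a-2. The other members also fell, as Mir181c did to 4429 CPM, since only the total changed, but they stayed within their spread between replicates. With at least 1 count as the mark of detection, 345 precursors with both arms in 1 precursor were detected in place of 221. The order of the 6 members held per 100 bases, without regard to strand and in either replicate alone. Without regard to strand it could not change, as no member had opposite-strand counts. Nor could it change per 100 bases, since lengths of 72 to 89 bases differ by less than the narrowest neighbour gap, 1.41-fold. With a minimum of 1 or of 100 counts all 6 members passed. With TMM totals or DESeq2 size factors, each member kept its direction and its side of 1 in the ratio of the replicates. Exact sign flips within libraries gave p = 0.50 for each pair of neighbouring genes on a chromosome, the smallest possible. A median gap of 4.91-fold was found over pairs of copies with at least 100 counts, in place of 4.59-fold over all 15, an alternative chosen after seeing the data. Between groups, the replicate numbers pair nothing, since the 2 libraries form 1 group. Depth limits Mir181b-1 most, with 137 and 202 counts.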
